A study of Mus musculus with 2 samples.

Results

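The accessibility of chromatin at 10 regulators of endothelial and blood cells was examined in cardiac progenitor cells (CPCs) derived from mouse embryonic stem (ES) cells. The genes were the receptors Kdr, Flt1 and Tek, the adhesion molecules Cdh5 and Pecam1, and the transcriptional regulators Etv2, Tal1, Lmo2, Runx1 and Erg. A peak belonged to one of them where the deposited peak list gave its symbol, and each distinct interval was counted once. The genes held 28 of the 26232 distinct peaks in the list, and 9 of them, all except Tek, were among the 15351 genes with a peak. For comparison, 62.5% of protein coding genes had one.

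Open chromatin was measured by ATAC-seq, which uses the transposase Tn5 to insert adapters into accessible DNA. The samples were 2 replicates of a single group, CPCs at day 5 of directed differentiation, and the study's methods describe independent differentiations. The cells came from the E14 Tg(Nkx2-5-EmGFP) line, labelled C57BL/6, in which Nkx2-5 sequences drive a green fluorescent protein, and both replicates received BMP4, Activin A, VEGF, bFGF and FGF10 during differentiation. No sort on the reporter is described for the ATAC-seq cells in the sources used here, and Isl1 knockdown cells named by the series are not analysed here. The replicates share 1 list without scores, which per the methods holds peaks that overlapped between them.

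Endothelial and blood cells arise from mesoderm that expresses Kdr, and early cardiac progenitors share this origin. Etv2, an ETS factor, starts the endothelial and blood programme. Tal1, a basic helix-loop-helix factor, joins the LIM-domain protein Lmo2 and GATA factors in complexes on DNA, and Runx1 then drives the emergence of blood cells from endothelium. Erg is an ETS factor of established endothelium, Cdh5 (VE-cadherin) and Pecam1 (CD31) sit at endothelial junctions, Kdr and Flt1 bind VEGF, and Tek (Tie2) binds angiopoietins.

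Peaks carrying markers of the labelled cell type were present in the list. Of 7 cardiac progenitor markers 6 had a peak, with 29 peaks in all, and Hand2 had none. Of 4 endothelial markers, all of them members described here, 3 had a peak, against 1 of 4 blood markers (Klf1) and 1 of 2 pluripotency markers (Nanog). These 4 blood markers belong to a longer list of 30 blood genes described below, of which 70.0% had a peak, and 62.5% of all genes had one, so the markers alone do not stand for that list. The list gives presence in the whole cell pool, so a site open in a minor cell type and a site open in most cells cannot be told apart, and the share of endothelial or blood cells in the pool was not tested.

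Sequences of peak centres are shown first. For each gene below, the central 200 bp of its widest peak lying over 1 kb from the transcription start site (TSS) are given on the gene's strand and on build mm9, because 22 of the 28 peaks were of this kind. Shown are 4 of the 8 genes with such a peak, chosen after their contents were known to show each kind of match, and the centres of Tal1 and Runx1 held none of these matches. Capitals mark matches on either strand to a GATA site (AGATAA or TGATAA), a RUNX site (TGTGGT) or an E-box of the form CAGCTG or CAGATG. The centres are those of chr5:76462051-76462250 (Kdr, intergenic), chr11:106584467-106584666 (Pecam1, intron), chr7:31419755-31419954 (Etv2, coding exon) and chr16:95731650-95731849 (Erg, intron). All but Etv2 and Pecam1 lay over 10 kb from the TSS to which the list assigned them.
Kdr, 87.7 kb upstream, minus strand: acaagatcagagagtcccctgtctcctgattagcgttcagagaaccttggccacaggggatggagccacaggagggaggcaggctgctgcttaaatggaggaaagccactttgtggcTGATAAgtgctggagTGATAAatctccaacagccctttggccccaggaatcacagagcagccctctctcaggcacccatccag
Pecam1, 7971 bp upstream of a shorter transcript, minus strand: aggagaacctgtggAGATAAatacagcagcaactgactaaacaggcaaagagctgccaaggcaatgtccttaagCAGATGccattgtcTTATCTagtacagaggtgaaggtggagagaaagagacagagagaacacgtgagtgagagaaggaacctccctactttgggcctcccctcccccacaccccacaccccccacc
Etv2, 1017 bp downstream, minus strand: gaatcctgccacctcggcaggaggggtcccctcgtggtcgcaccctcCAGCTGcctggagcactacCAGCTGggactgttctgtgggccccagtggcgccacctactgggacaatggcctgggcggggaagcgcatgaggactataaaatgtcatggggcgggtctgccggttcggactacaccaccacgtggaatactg
Erg, 20.2 kb downstream, minus strand: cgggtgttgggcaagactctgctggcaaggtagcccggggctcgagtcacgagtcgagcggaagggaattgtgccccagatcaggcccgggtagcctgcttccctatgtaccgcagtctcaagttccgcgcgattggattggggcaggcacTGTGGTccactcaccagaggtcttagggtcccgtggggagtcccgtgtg

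The Kdr sequence held 2 GATA sites and the Pecam1 sequence held 2 GATA sites and 1 E-box, whereas the Etv2 sequence held 2 CAGCTG E-boxes and no GATA site. The Erg centre held a single RUNX site.

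Promoter sequence is given for a start site that lay under a peak and for start sites that did not, and these 3 were picked after the peaks were known. Each is the 100 bp before a TSS on the gene's strand: chr16:92697574-92697673 for the proximal promoter of Runx1, which a peak covered, chr16:92826312-92826411 for its distal promoter, and chr4:94405880-94405979 for Tek. None of the 3 held a GATA, ETS, RUNX, CAGCTG or CAGATG match, so no capitals appear. At Flt1, Lmo2 and Kdr only the 5′-most start site under a peak was scanned. The 100 bp before it held 1 ETS match (AGGAAG) at Flt1, 1 CAGATG match at Lmo2 and none at Kdr.
Runx1 proximal promoter, minus strand: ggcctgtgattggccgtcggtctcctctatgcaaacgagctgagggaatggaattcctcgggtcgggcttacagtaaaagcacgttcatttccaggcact
Runx1 distal promoter, minus strand: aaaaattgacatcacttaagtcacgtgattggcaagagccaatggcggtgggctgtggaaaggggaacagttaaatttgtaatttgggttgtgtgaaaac
Tek promoter, plus strand: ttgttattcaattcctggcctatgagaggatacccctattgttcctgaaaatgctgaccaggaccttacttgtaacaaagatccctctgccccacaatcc

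A peak was assigned to 9 of the 10 genes (90.0%, 95% Wilson interval 59.6-98.2%), beside 62.5% of 21900 protein coding genes. This interval, like the others given here, covers counting error only. The genes carried a mean of 2.80 peaks and a median of 2.00, beside a mean of 1.07 over all genes. Flt1 and Runx1 had 7 peaks each, a number reached by 135 genes or 0.616% of all genes. With each peak given to the nearest protein coding TSS instead, Flt1 had 4. Kdr had 4, a number that 4.78% of genes reached or passed. Cdh5, Tal1, Lmo2 and Erg had 2 each, where 24.4% of genes had at least that many, and Pecam1 and Etv2 had 1 each. The receptors and adhesion molecules held 14 of the peaks and the transcriptional regulators the other 14.

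**Figure D1:**
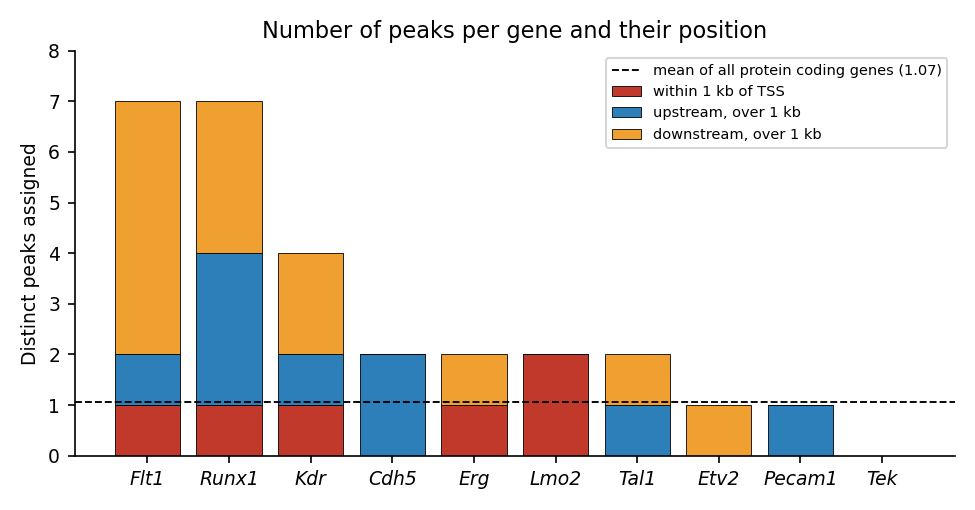
Bars give the number of distinct peaks carrying each member's symbol (vertical axis, count), split into peaks within 1 kb of the start site, upstream and downstream, and the dashed line is the mean of all protein coding genes, 1.07. Flt1 and Runx1 had 7 peaks, Lmo2 had both of its peaks within 1 kb, and Tek had none.

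The stretch of genome in which a gene can collect peaks differed widely between members. The territory of a gene, defined as the stretch nearer to its TSS than to that of any other protein coding gene, ran from 12.1 kb for Etv2, in a crowded region, to 652 kb for Cdh5. Densities were taken from all peaks inside the territory whatever symbol they carried, which were 4 for Flt1, 3 for Lmo2, 8 for Runx1, 3 for Erg and 4 for Cdh5, and as many as the peaks assigned above for the other genes. On this count Etv2 with its single peak had 8.29 peaks per 100 kb, Tal1 had 4.37, Lmo2 2.48 and Flt1 2.36. Kdr (1.34), Runx1 (1.29), Pecam1 (1.15) and Erg (1.00) lay near the genome's 0.965 peaks per 100 kb, Cdh5 lay below it at 0.613, and Tek had no peak in 139 kb. No error can be put on these densities, because the replicates share 1 list.

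Among the VEGF receptors, both Kdr and Flt1 had a peak over the start site and further peaks at a distance. Kdr (ENSMUSG00000062960, chr5:76328852-76374483, minus strand) is the main signalling receptor for VEGF. Its start site peak, chr5:76373541-76374993, was 1453 bp wide and covered 2 annotated start sites. An intronic peak of 481 bp, the narrowest of all 28, lay 24.1 kb downstream at chr5:76350116-76350596 with 2 GATA sites in its centre. The other peaks were intergenic, at chr5:76461787-76462515 (729 bp, 87.7 kb upstream) and chr5:76226153-76226842 (690 bp, 148 kb downstream, beyond the gene's 3′ end).

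Flt1 (chr5:148373180-148537587, minus strand) codes for a VEGF receptor that binds its ligand tightly and, in a soluble form, holds it away from Kdr. The peak over its start site, chr5:148536538-148538336, was 1799 bp wide and covered 2 start sites. Within the gene 5 intronic peaks followed, at 64.0 kb (chr5:148473219-148473972, 754 bp), 91.8 kb (chr5:148445535-148446079, 545 bp), 106 kb (chr5:148431575-148432341, 767 bp), 114 kb (813 bp) and 124 kb (chr5:148413053-148413767, 715 bp) downstream. The last 4 formed a row with gaps of 7.92 to 13.2 kb between neighbours. Those at 106, 114 and 124 kb lay nearer to the annotated coding start of the neighbouring gene Pan3 than to that of Flt1. The peak at 114 kb held a short tandem repeat in its centre, and without it Flt1 had 6 peaks and the members 27. A further intergenic peak of 735 bp lay 35.3 kb upstream at chr5:148572494-148573228. None of the peaks away from the start site reached the list's median width of 1081 bp.

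Tek (chr4:94405980-94541667, plus strand) was the one member without a peak. The nearest peak in the list, chr4:94280829-94281806 (978 bp), carried the symbol Ift74 and lay 125 kb from the Tek start site. The absence of a line is not a measurement of closed chromatin, since the list holds regions called in both replicates and may lack lines here.

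The adhesion genes had no peak at their first start site, but each had peaks elsewhere. Cdh5 (chr8:106625525-106668402, plus strand) had intergenic peaks only, at 228 kb (chr8:106397152-106398176, 1025 bp) and 72.7 kb (chr8:106552416-106553158, 743 bp) upstream. A peak of 660 bp inside its intron, chr8:106629497-106630156, lay 4.30 kb downstream of the Cdh5 start site and is not counted here. It carried the symbol of Gm29682, a transcript whose start site lay within Cdh5, 53 bp from the peak's midpoint. Pecam1 (chr11:106515531-106611942, minus strand) had 1 peak of 1571 bp, wider than 91.3% of all peaks over 1 kb from a TSS, at chr11:106583782-106585352. It lay 7971 bp upstream of the start of shorter transcripts and, seen from the 5′-most start site, 27375 bp inside the gene, in an intron.

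Etv2 (chr7:31418635-31421308, minus strand) is a compact gene of 2.67 kb, and its peak, chr7:31419271-31420439, of 1169 bp lay over coding sequence 1017 bp downstream of the TSS. The TSS implied by the deposited distance was over 10 bp from any annotated one, which was the case for 1 of the 28 peaks. Neighbouring peaks carried Cox6b1, 10.2 kb away, and Rbm42.

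The partners Tal1 and Lmo2 differed in where their peaks lay. Tal1 (chr4:114729031-114744360, plus strand) had a peak 3789 bp upstream, chr4:114724696-114725790 (1095 bp), and one of 876 bp over a coding exon, chr4:114735506-114736381, while its CpG-rich 5′-most promoter had none. A further peak 39.5 kb downstream of the Tal1 start, chr4:114767925-114769135 (1211 bp), carried the symbol of the neighbouring gene Pdzk1ip1. Lmo2 (chr2:103798143-103822035, plus strand) had its peaks side by side at the proximal promoter, chr2:103809175-103810090 (916 bp) and chr2:103810228-103811168 (941 bp), separated by 137 bp and covering 2 and 5 annotated start sites. No peak lay at the distal Lmo2 start, 11490 bp away from them.

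Runx1 (chr16:92601712-92826311, minus strand) is transcribed from a distal and a proximal promoter. The peak over the proximal start site, chr16:92697367-92699655, was the widest of the 28 at 2289 bp, and was wider than 92.8% of peaks within 1 kb of a TSS. The distal promoter had no peak, the nearest lying 47.7 kb from it at chr16:92778113-92779143 (1031 bp). Other peaks inside the gene were chr16:92719159-92719705 (547 bp), 21857 bp upstream of the proximal start, chr16:92631663-92633052 (1390 bp, 65.2 kb downstream) and chr16:92605800-92606836 (1037 bp, 91.3 kb downstream, over a coding exon). Far upstream, intergenic peaks lay at 181 kb (chr16:93006594-93007490, 897 bp) and 246 kb (chr16:93071682-93072701, 1020 bp).

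Erg (chr16:95580776-95808200, minus strand) had intronic peaks at chr16:95806737-95807719 (983 bp), 973 bp downstream of its first start site, and at chr16:95730872-95732628 (1757 bp). The second lay 20.2 kb downstream of the start of a shorter transcript and was wider than 94.0% of peaks at over 1 kb from a TSS.

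**Figure D2:**
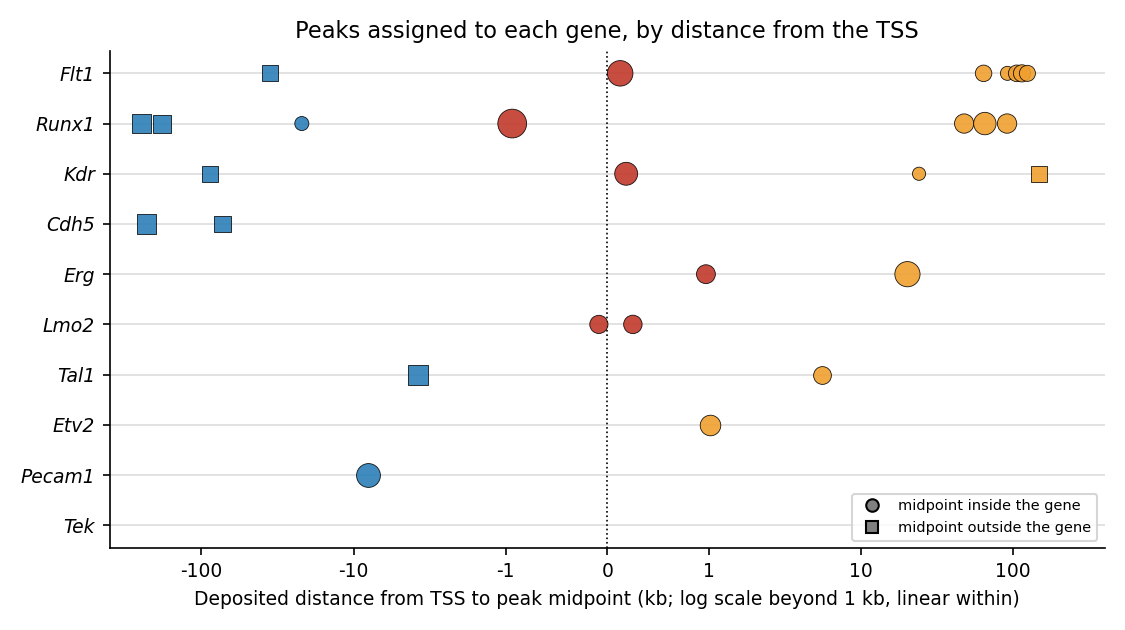
Each symbol is a peak at its deposited distance in kb from the start site (horizontal axis, logarithmic beyond 1 kb), with circles inside and squares outside the gene, larger symbols for wider peaks, and red for peaks within 1 kb, blue for upstream and orange for downstream ones. The Flt1 introns held a row of peaks between 64.0 and 124 kb, and the Tek row is empty.

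Over all members, the peaks lay further from start sites than those of the list. Of the 28 peaks 6 lay within 1 kb of a TSS (21.4%, 95% Wilson interval 10.2-39.5%), beside 44.9% of all peaks. A further 9 (32.1%) lay upstream and 13 (46.4%) downstream, beside 24.4% and 30.8%. At over 50 kb lay 13 peaks (46.4%, 29.5-64.2%), beside 17.0% of all peaks, and the median distance was 41.5 kb beside 4.15 kb. Flt1 and Runx1 together supplied 9 of these 13, so the share was not carried evenly by the genes. These shares are descriptions, and no test was made of the differences from the list.

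By the position of the midpoint in the annotation 14 peaks were intronic, 8 intergenic, 4 over coding exons and 2 over UTRs. Peaks that covered start sites of Runx1 and Lmo2 thus count as intronic or coding exon. The same classes were not counted over all peaks of the list, so these numbers describe the members only. Of the 28 peaks 20 had their midpoint inside the gene whose symbol they carried, a share likewise not counted over all peaks. Those of Cdh5 lay outside it without exception, whereas those of Lmo2, Pecam1, Etv2 and Erg all lay inside.

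Promoters were also compared by their CpG content. A promoter, taken as 500 bp on each side of the 5′-most coding TSS, overlapped a peak at 3 of the 10 genes, Kdr, Flt1 and Erg. In the list, 89.4% of CpG-rich promoters and 24.7% of CpG-poor promoters overlapped a peak. Of the 3 members with a CpG-rich promoter 2 (Kdr and Flt1, not Tal1) had a peak overlapping it, and of the 7 with a CpG-poor promoter 1 (Erg) had one. The Erg peak overlapped only the edge of the promoter. Its midpoint lay 973 bp downstream and it covered no annotated start site. With every annotated coding start counted, Lmo2 and Runx1 were added and the number was 5.

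The members' peaks were narrower than the list as a whole. Their median width was 928 bp (range 481-2289 bp) beside 1081 bp, and 8 of 28 (28.6%, 15.3-47.1%) were wider than the list's median, beside 49.9%. Split by distance, the medians were 1218 bp beside 1326 bp within 1 kb of a TSS, and 844 bp beside 911 bp further away. Both member medians lay within the quartiles of all peaks of their class, 1072-1691 bp and 735-1146 bp. The GC content at distal peak centres was 55.0% at the median, beside 54.5%.

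**Figure D3:**
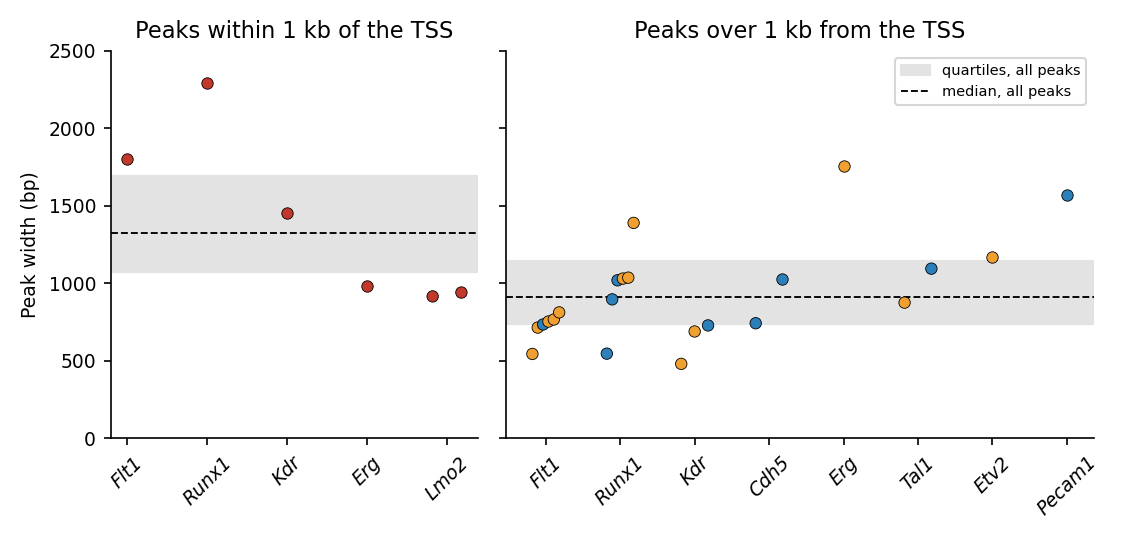
Points are the widths in bp of the 28 peaks by gene, coloured red within 1 kb of the start site, blue upstream and orange downstream, with the median (dashed line) and quartiles (grey band) of all peaks of the same distance class. Runx1 had the widest peak within 1 kb (2289 bp) and Erg the widest further away (1757 bp).

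The motifs of the factors that act on this programme were counted in the central 200 bp of the 22 peaks over 1 kb from a TSS, with 14460 such peaks in the list for comparison. A GATA site was present in 7 (31.8%, 16.4-52.7%), beside 16.6% of all such peaks, at Kdr, Flt1, Cdh5, Pecam1 and Runx1. A RUNX site was present in 8 (36.4%, 19.7-57.0%), beside 12.9%, also over 5 genes, and 3 of these peaks belonged to Runx1 itself. Without the Flt1 peak that held a repeat it was present in 7 of 21 (33.3%, 17.2-54.6%). An ETS site (CCGGAA or AGGAAG) was present in 2 (9.09%, 2.53-27.8%), beside 30.0%. Peaks of one gene share their source, so these intervals are too narrow if such peaks are alike.

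The E-box form CAGCTG or CAGATG was found in 8 of the 22 (36.4%) beside 30.9%, and any E-box (CANNTG, which includes the former) in 12 (54.5%) beside 62.8%. FOX (TGTTTA) and AP-1 (TGANTCA) sites were in 1 peak each (4.55%), beside 9.11% and 7.07% of all such peaks. SOX sites (ACAATG) and a form of the Isl1 homeodomain site (CTAATG) were in 2 peaks each (9.09%), beside 7.25% and 6.83%. Both peaks with CTAATG were Flt1 introns, at 64.0 kb and 124 kb. The oligo that the study used as specific competitor for Isl1 held CTAATT, which was not searched. Other Isl1 sites are therefore not covered by these counts. None of the 6 peaks within 1 kb of a TSS held a GATA, ETS or RUNX site in its centre. Over all 11772 such peaks the shares were 3.37%, 33.4% and 6.47%. The interval for the members reached 39.0% for each site, so 6 peaks are too few to be set apart from these shares. With windows of 500 bp a GATA site was in 10 of the 22 distal peaks beside 33.1% of all distal peaks, a RUNX site in 10 beside 29.0% and an ETS site in 9 beside 57.7%. A match describes letters and does not show that a factor was bound.

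**Figure D4:**
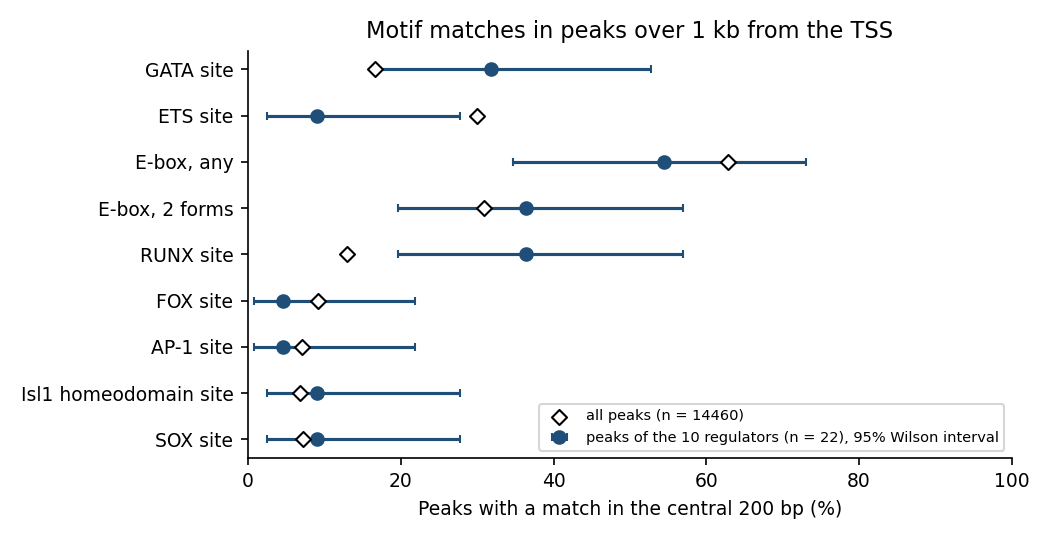
Filled circles give the percent of the 22 member peaks over 1 kb from the start site with a match in the central 200 bp, with 95% Wilson intervals for counting error, and open diamonds give the percent of all 14460 such peaks, where E-box, 2 forms stands for CAGCTG or CAGATG. The diamond lies above the interval for ETS sites (30.0%), below it for RUNX sites (12.9%) and near its lower end for GATA sites (16.6%).

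The wider endothelial and blood programmes were read in the same way, from lists of genes that are not members. Of 40 endothelial genes 34 (85.0%, 70.9-92.9%) had a peak, and of 30 blood genes 21 (70.0%, 52.1-83.3%), beside 62.5% of all genes. The lists were chosen with earlier results of these data known and are not random draws. These intervals therefore cannot decide whether a list differs from all genes. Of the endothelial genes 20 had a peak within 1 kb of a TSS and 14 had only more distant ones. These counts were not made over all protein coding genes, so whether they are high or low is not known. The most peaks were at Efnb2 (8), an arterial ephrin, Nrp2 (6), a VEGF co-receptor, Egfl7 (5), a secreted endothelial factor, Ets1 (5), an ETS factor, and Aplnr (4), the apelin receptor, a count that S1pr1 also had. The 6 endothelial genes without a peak were Tie1, Eng, Emcn, Robo4, Vegfb and Lyve1, and Tie1 is the closest relative of the likewise peakless Tek.

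In the blood list the most peaks were at Zfpm1 (7), a GATA cofactor, Runx3 (5), Runx2 (3), Kit (3), the stem cell factor receptor, and Ldb1 (2), a partner of Lmo2, which was 1 of 11 genes with 2 peaks and was named for its summed width. Of its 18 transcriptional regulators 16 had a peak, against 5 of the 12 other genes, beside 62.5% of all genes. This grouping was made after the values were seen. CpG-rich promoters, which overlapped a peak more often in the list, were more common among the regulators, and the part of promoter class was not tested. The 9 without a peak included the haemoglobin genes Hbb-bh1 and Hba-x, the leukocyte gene Ptprc and the lineage factors Gata1 and Spi1. For contrast, 9 of 10 cardiac regulators had a peak (mean 3.20 peaks), close in number to the 9 of 10 members (mean 2.80), whereas 3 of 10 liver genes did (30.0%). No test was made between the lists, since 1 peak list gives no replicate error.

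**Figure D5:**
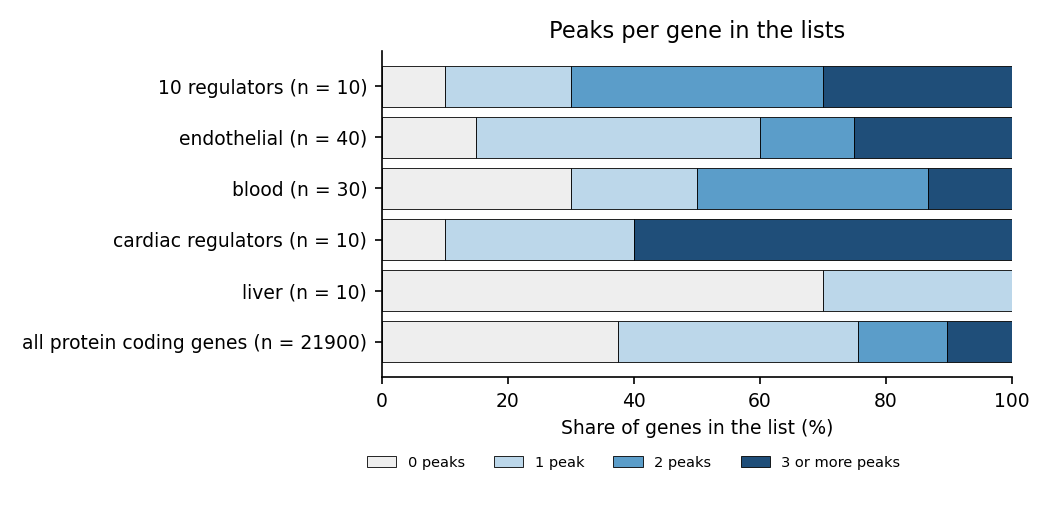
Bars give the percent of genes in each list with 0, 1, 2 or at least 3 peaks, with the number of genes beside each name. The part without a peak takes up 1 of the 10 members, 6 of 40 endothelial genes and 9 of 30 blood genes.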

How the data were processed

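ATAC-seq of 2 replicates of day 5 CPCs was analysed from 1 deposited peak list. Per the study's methods and processing notes, the authors mapped reads to mm9 with bowtie2, removed duplicates with Picard 1.136, called peaks per replicate with MACS14, removed blacklisted regions and kept with bedtools 2.15 the peaks overlapping between replicates by at least 1 bp. TSS assignment with HOMER is described for ChIP-Seq peaks only. A Tn5 offset correction is not given in the sources used here. The deposited columns hold coordinates, a signed distance in bp, an accession and a symbol, with no score, p-value or depth. Precision per sample is therefore unknown, and no test between conditions was possible.

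The 26429 lines were reduced to 26232 distinct intervals. Positions are 1-based on mm9, and gene models are from GENCODE on the NCBIM37 assembly. RefSeq supplied gene names, matching 96.7% of accessions. It also supplied the set of protein coding genes behind the shares and means over all genes. Motifs were searched on both strands. CpG-rich promoters had an observed to expected CpG ratio of at least 0.6 and at least 50% GC. Python 3.11.15, pandas 2.3.3 and pysam 0.24.0 were used, and the counting was tested on simulated intervals. Alternatives were repeated lines, wider peaks, other assignments and other windows. All members were named with every peak, and the other lists by their 5 genes with most peaks. Members and lists were chosen with earlier results of these data known. The sequence of 1 peak is not reported here.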

Additional observations from a re-analysis of the deposited data

How the results depend on the processing

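Under the alternatives tried, 69 of 100 recomputed values moved by less than the limits set and 31 moved. Members with a peak numbered between 7 and 9. Limiting the list to peaks wider than its median left 8 of the 28 peaks, with Cdh5 and Lmo2 at 0. The median width was 1453 bp over the widest peak of each gene, and 5 rather than 3 members had a peak overlapping a promoter when any coding TSS was used. Assignment to the nearest protein coding TSS gave Flt1 4 peaks and Cdh5 4, and counting only the gene body with 10 kb before it gave Kdr 2 and Cdh5 1. Leaving out the Flt1 peak with a repeat, an alternative chosen after seeing the data, gave 27 peaks in all, 6 at Flt1 and 7 with a RUNX site. Matches over all 28 peaks grew with the window. From the central 200 bp to the central 500 bp and the whole peak, ETS matches went from 2 to 13 and 21 peaks. RUNX went from 8 to 13 and 15, any E-box from 15 to 25 and 26, and CAGCTG or CAGATG from 10 to 19 and 22. FOX went from 1 to 6 and 12 and AP-1 from 1 to 5 and 7. The Isl1 form CTAATG went from 2 to 5 and 8, and SOX from 2 to 4 and 8. GATA went from 7 to 13 in the whole peak, as longer windows hold more letters. No paired analysis was possible because the replicates form 1 group and share 1 list, and for the same reason neither replicate could be left out. Depth is unknown, so a missing peak is not evidence of a closed site.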

Other observations

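Peaks were also present at genes for the ligands of the receptors described above. Of 6 VEGF and angiopoietin ligand genes 5 had a peak, a number too small to be set apart from the 62.5% of all genes with one. Vegfa, which binds Kdr and Flt1, and Vegfc, a ligand of their relative Flt4, had 2 peaks each, and Pgf, a ligand of Flt1, had 1. Angpt1 and Angpt2, the ligands of Tek, had 1 each although Tek itself had none, and Vegfb had none. The widest Vegfa peak spanned 3541 bp, against 2289 bp for the widest member peak. These genes were singled out after their values were seen.

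All 10 transcription factors of the endothelial list had a peak, with 23 peaks in all, beside 24 of its 30 other genes and 62.5% of all genes. This split was likewise made after the values were seen. It was not matched for promoter CpG content, and 89.4% of CpG-rich promoters overlapped a peak beside 24.7% of CpG-poor ones. Whether the factors differ from other genes of like promoters was not tested. Gata2 and Lyl1, a GATA factor and a relative of Tal1, had 2 peaks each, and Fli1, a relative of Erg, had 3.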
